A study of Homo sapiens with 4 samples.

Results

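The HOX cluster genes are the protein-coding genes whose symbol is HOXA, HOXB, HOXC or HOXD followed only by digits, and 39 such genes were found among the 19951 protein-coding genes of GENCODE release 29. The rule uses only the name and the type of a gene. Each of the 39 was then looked up in the authors' lists of differentially expressed mRNAs. Total RNA without its ribosomal part was sequenced from HepG2 and Huh7 cells, established human liver cancer lines. Group A was HepG2 cells and group C was Huh7 cells before treatment. Groups B and D were the same lines after sonodynamic therapy (SDT), in which low-frequency ultrasound activates the sensitizer hematoporphyrin monomethyl ether, carried here in targeted nanobubbles together with lonidamine (LND), an inhibitor of tumor energy metabolism. Each of the 4 groups was 1 library, and no source used here says that the untreated cells received ultrasound or empty nanobubbles.

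HOX genes encode transcription factors that bind DNA through a homeodomain and give cells their position along the head-to-tail axis of the embryo. They lie in clusters on different chromosomes, and genes at the same place in different clusters, called paralogs, carry the same number. Low numbers pattern the hindbrain and neck, and high numbers pattern the hind trunk, the limbs and the urogenital tract. Along each cluster the order of the genes follows the order of their domains in the embryo. In adult cells the clusters are held silent by Polycomb proteins or kept active by trithorax proteins in a pattern that reflects where the tissue arose.

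The readout was whether a gene was listed. The deposited tables give gene ontology (GO) terms and KEGG pathways with the identifiers of the differentially expressed genes under each, and a gene was counted as listed in group B vs. A or D vs. C when its identifier stood under any GO term of that table. The tables hold neither levels, nor fold changes, nor the direction of change. A gene that is not listed may have been expressed without passing the authors' threshold, or may not have been expressed. It may also have lacked a GO annotation, unless it was listed in the other cell line. The remaining possibilities cannot be told apart. For the same reason, neither the level of any HOX gene nor the identity of the cell lines could be checked from expression. With 1 library per group, a listing has no replicate check, and no test was made on the counts below.

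In HepG2 cells 11 of the 39 HOX genes (28.2%) were listed after SDT, against 23.9% of all protein-coding genes. In Huh7 cells 8 HOX genes (20.5%) were listed, against 21.9% of all protein-coding genes. Both shares lay close to those of all genes, above in HepG2 and below in Huh7 cells. HOXA5, HOXA13 and HOXB9 were listed in both cell lines, which is 7.69% of the family, against 11.4% of all protein-coding genes. A further 8 genes were listed in HepG2 cells only (HOXA3, HOXB8, HOXC4, HOXC5, HOXC8, HOXC12, HOXC13 and HOXD13) and 5 in Huh7 cells only (HOXA4, HOXA11, HOXB2, HOXB5 and HOXB6). In all, 16 HOX genes (41%) were listed in at least 1 cell line, against 34.3% of protein-coding genes at large, which left 23 in neither list.

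**Figure D1:**
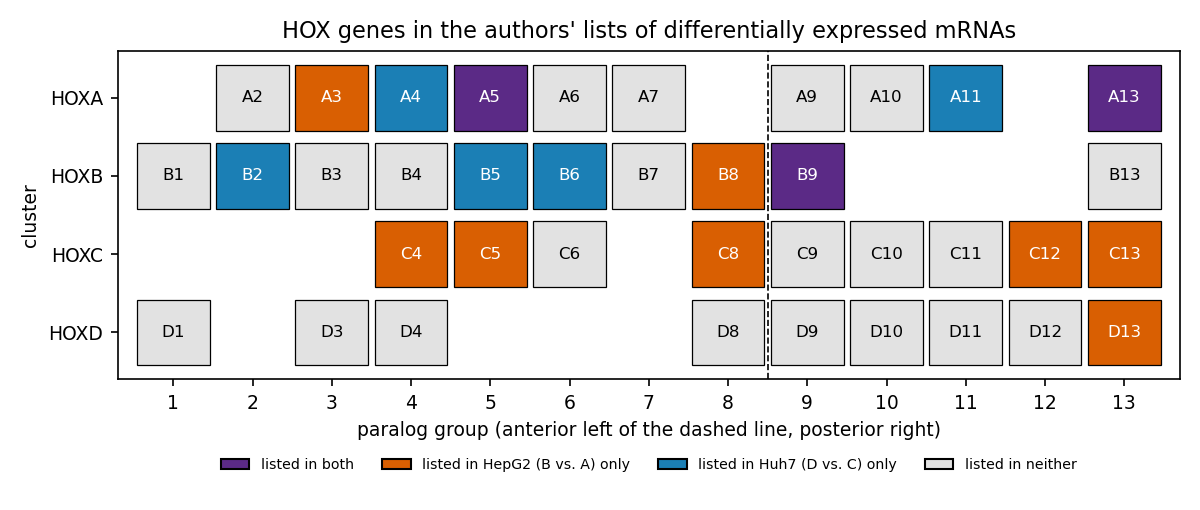
Each box is a HOX gene, placed by cluster (rows) and paralog group (columns), with the color giving the list that holds it. The HOXC and HOXD rows hold genes listed in HepG2 cells only, whereas the genes listed in Huh7 cells all stand in the HOXA and HOXB rows.

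The 3 shared genes made up 27.3% of the HOX genes listed in HepG2 cells and 37.5% of those listed in Huh7 cells. Over all protein-coding genes these shares were 47.7% and 52.2%. The overlap was therefore a smaller part of each HOX list than of each list at large, but it rests on 3 genes and the difference was not tested.

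The clusters differed in which cell line listed them. HOXC, whose genes pattern the trunk and, at its posterior end, the hair follicle and nail, had 5 of 9 genes in the HepG2 list (55.6%) and 0 of 9 in the Huh7 list. HOXD, known for patterning the limb and digits, had 1 of 9 genes listed in HepG2 cells (11.1%), which was HOXD13, and 0 in Huh7 cells. Together HOXC and HOXD gave 6 of 18 genes after SDT of HepG2 and 0 of 18 after SDT of Huh7. All 8 listings of Huh7 cells were in HOXA and HOXB, which held 4 of 11 (36.4%) and 4 of 10 (40%), while HepG2 cells listed 3 of 11 (27.3%) and 2 of 10 (20%) of the same clusters. In Huh7 cells the clusters were therefore split in pairs, with HOXA and HOXB at 38.1% (8 of 21) and HOXC and HOXD at 0. The share of all protein-coding genes was 21.9%. In HepG2 cells the same pairs stood at 23.8% and 33.3%, against 23.9% of all protein-coding genes. The pairs were chosen after the values had been seen, the clusters hold few genes, and the split was not tested. Whether HOXC and HOXD transcripts were present in Huh7 cells at all cannot be told from the lists.

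The paralog groups showed no such split. Of the 23 anterior genes (groups 1 to 8), the HepG2 list held 6 (26.1%) and the Huh7 list 5 (21.7%). Of the 16 posterior genes (groups 9 to 13), the lists held 5 (31.2%) and 3 (18.8%). Over all protein-coding genes the shares were 23.9% and 21.9%, and 34.3% were listed in at least 1 cell line. A single paralog group has at most 4 genes, so full or empty groups rest on few genes, and none was tested. Paralog group 5 was the only group with every member listed in at least 1 cell line. HOXA5 was listed in both, HOXC5 in HepG2 cells and HOXB5 in Huh7 cells. Group 13, which patterns the end of the body axis and the tips of the limbs, followed with 3 of its 4 genes listed in HepG2 cells, HOXA13, HOXC13 and HOXD13, and HOXA13 alone in Huh7 cells. HOXB13, its prostate-associated member, was listed in neither. Groups with no gene in either list included 7 and 10, which hold HOXA7 and HOXB7, and HOXA10, HOXC10 and HOXD10.

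**Figure D2:**
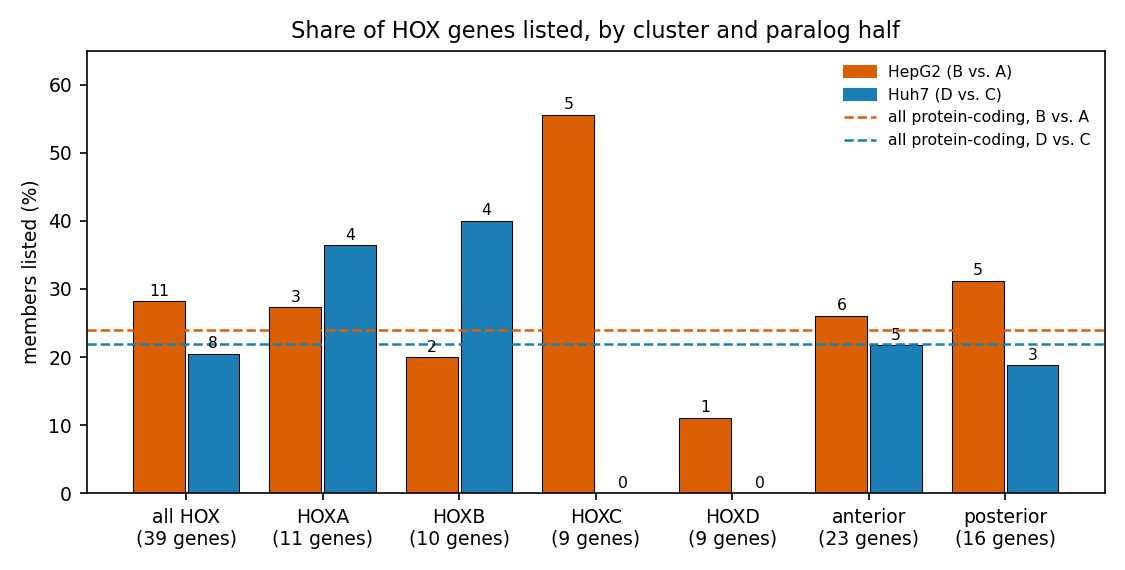
Bars give the percentage of HOX genes in the HepG2 (orange) and Huh7 (blue) lists for all HOX genes, for each cluster and for the anterior and posterior paralog groups, with the number listed above each bar. Dashed lines mark all protein-coding genes (23.9% and 21.9%), and the HOXC bars at 55.6% and 0 are the farthest apart.

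The genes listed in neither cell line include some of the HOX genes best known from disease. HOXA9 and HOXA10, which drive proliferation of blood progenitors in leukemia, were listed in neither, and neither were HOXB3 and HOXB4, which act in blood stem cells. HOXA2, HOXA6 and HOXA7 were also in neither list. HOXB was also without HOXB1, HOXB7 and HOXB13. In HOXC the genes outside both lists were HOXC6, HOXC9, HOXC10 and HOXC11, of which HOXC9, HOXC10 and HOXC11 are neighbors. In HOXD they were HOXD1, HOXD3, HOXD4, HOXD8, HOXD9, HOXD10, HOXD11 and HOXD12.

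In the GENCODE annotation (GRCh38), HOXA lies on the minus strand of chromosome 7. HOXB spans 200.7 kb, chr17:48528526-48729178, also on the minus strand. HOXC spans 117.3 kb, chr12:53938765-54056030, and HOXD spans 98 kb, chr2:176092891-176190907, both on the plus strand. The genome build behind the authors' files is not given in the sources used here, and these positions were joined to the lists by gene identifier alone. Some listed genes had a listed neighbor, and others stood apart from any other listed gene. In HepG2 cells 3 pairs of neighbors in paralog order were both listed, HOXB8 with HOXB9, HOXC4 with HOXC5 and HOXC12 with HOXC13. The number was 3 in Huh7 cells as well, with HOXA4 and HOXA5, HOXA11 and HOXA13, and HOXB5 and HOXB6. No run of 3 neighbors was listed in either cell line, and none of these pairs was common to both.

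**Figure D3:**
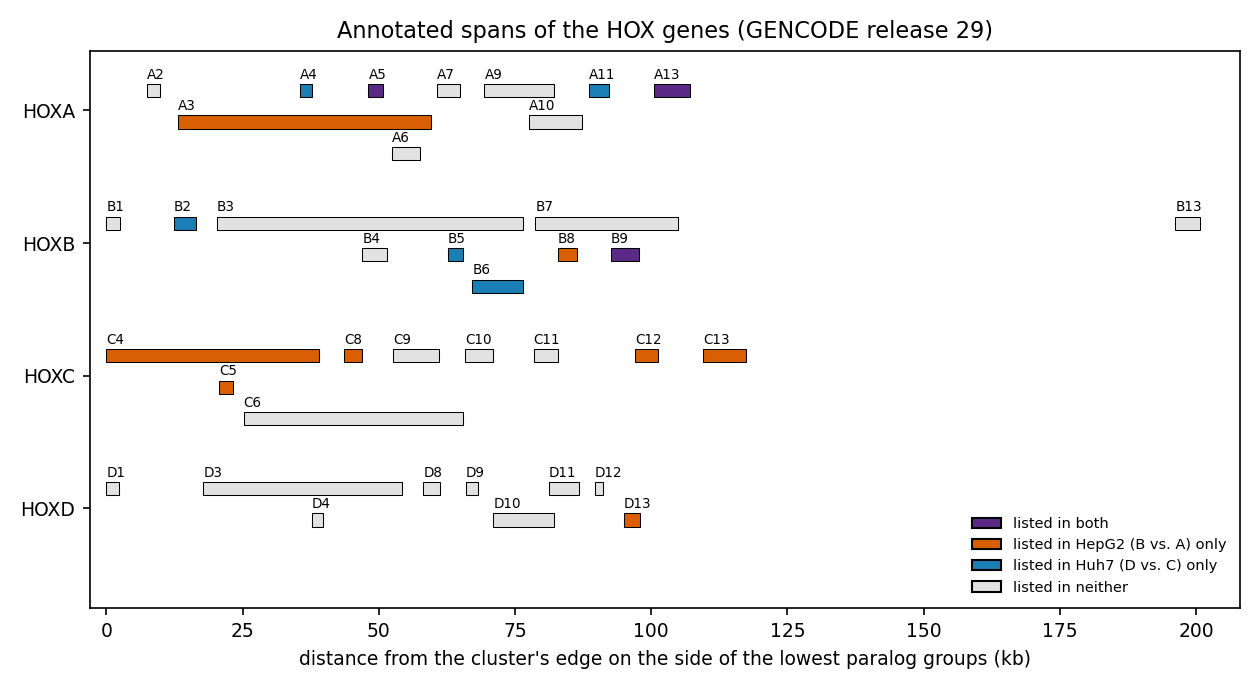
Each bar is the annotated span of a HOX gene, in kb from the edge of its cluster on the side of the lowest paralog groups, stacked where spans overlap and colored by list. In HOXC the listed genes C4 and C5 stand toward 1 end, C8 nearer the middle, and C12 and C13 toward the other end. HOXA3, HOXB3, HOXB7, HOXC4, HOXC6 and HOXD3 have spans that reach across other HOX genes.

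The protein-coding genes around the clusters were looked up in the same lists. Of the 40 protein-coding genes closest to the clusters, 5 on each side of each, 10 were in the HepG2 list (25%) and 7 in the Huh7 list (17.5%), close to the 23.9% and 21.9% of all protein-coding genes. Of the 8 immediate neighbors, 3 were in the HepG2 list and 1 in the Huh7 list. EVX2, a homeobox gene 9 kb beyond HOXD13, was listed in HepG2 cells only, as was HOXD13 itself, whereas its counterpart EVX1, 42.6 kb beyond HOXA13, was listed in neither. Around HOXC, the HepG2 list held 3 of 10 genes and the Huh7 list 2. Both Huh7 listings, CALCOCO1 and the heterochromatin gene CBX5, were also listed in HepG2 cells.

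The shared genes differ in what they are known for. HOXA5 (ENSG00000106004) patterns the lung and airway. HOXA13 (ENSG00000106031) patterns the digits and the urogenital tract, and HOXB9 (ENSG00000170689) patterns the thorax and the mammary gland. In the authors' annotation HOXA5 stood under 257 GO terms, HOXB9 under 134 and HOXA13 under 76, with the same number in both comparisons for all 3. The number of terms describes how fully a gene was annotated and not how it changed. Narrow terms of HOXA5 included bronchiole development, which has 3 background genes, and lung goblet cell differentiation, which has 5. HOXA13 had no biological process narrower than skeletal system development with 498 background genes, so its limb role does not enter the limb terms here.

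Among the genes listed in HepG2 cells only, HOXA3, which acts in the pharyngeal arches, stood under 157 terms, of which parathyroid gland development has 7 background genes. HOXD13, mutated in inherited synpolydactyly, stood under 182 terms, including hindgut development with 8. HOXC13, which regulates hair keratins, stood under 115, including nail development with 10. HOXB8, known in mice for grooming behavior and myeloid differentiation, stood under 147, and grooming behavior has 20 background genes. HOXC4, HOXC5 and HOXC8, which pattern the cervical and thoracic vertebrae, stood under 126, 120 and 118 terms. HOXC12 stood under 73, all of which were also terms of every other listed HOX gene.

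Among the genes listed in Huh7 cells only, HOXA11, needed for the forearm and the uterus, stood under 218 terms, of which uterus development has 24 background genes. HOXB2, which specifies a hindbrain segment and the facial nerve, stood under 158, and rhombomere 4 development has 2. HOXB5, tied to endothelial differentiation, stood under 144 terms, HOXB6 under 127 and HOXA4 under 126. HOXB6 was annotated to erythrocyte homeostasis, a term of 135 background genes. Taking the 16 listed genes of either cell line, 73 terms were common to all, and these are broad terms of transcription, DNA binding and development.

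Both lists were set against the GO terms that describe what HOX genes do. The term shares below stand beside 23.9% (HepG2) and 21.9% (Huh7) of all protein-coding genes, and no difference was tested. Anterior/posterior pattern specification, the classic HOX term, has 220 background genes, of which 73 (33.2%) were in the HepG2 list and 52 (23.6%) in the Huh7 list. HOX genes supplied 9 of the 73 and 7 of the 52, so 64 and 45 listed genes of the term were from other families. Of the 16 HOX genes listed in either cell line 14 stood under this term, and the exceptions were HOXA13 and HOXC12. Embryonic skeletal system morphogenesis held 26 of 98 genes in HepG2 cells (26.5%) with 4 HOX genes, and 30 of 98 in Huh7 cells (30.6%) with 6 HOX genes. Embryonic skeletal system development held 38 and 39 of 131 genes (29% and 29.8%), with 6 and 7 HOX genes.

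The limb terms held at most 1 HOX gene in each cell line, and most of their listed genes were from other families. Here too the shares of all protein-coding genes were 23.9% (HepG2) and 21.9% (Huh7). Embryonic limb morphogenesis held 36 of 130 genes in HepG2 cells (27.7%), of which HOXD13 was the HOX gene, and 29 of 130 in Huh7 cells (22.3%), of which HOXA11 was. Embryonic digit morphogenesis was split the same way, with HOXD13 among 17 of 62 genes for HepG2 (27.4%) and HOXA11 among 11 of 62 for Huh7 (17.7%). Embryonic forelimb morphogenesis held 10 of 34 genes in the HepG2 list (29.4%) with 0 HOX genes, and 9 of 34 in the Huh7 list (26.5%), HOXA11 among them. Thyroid gland development held HOXA3 and HOXA5 among its 7 of 25 genes in HepG2 cells and HOXA5 among 6 of 25 in Huh7 cells. Angiogenesis held 164 and 161 of 559 genes, with the same HOX genes as the thyroid term. Definitive hemopoiesis held 5 and 2 of 20 genes with no HOX gene in either. All listed HOX genes stood under sequence-specific DNA binding, for which the HepG2 list held 287 of 1156 genes (24.8%) and the Huh7 list 260 (22.5%). The HOX shares of 28.2% and 20.5% thus lay on either side of the shares of DNA-binding factors at large.

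**Figure D4:**
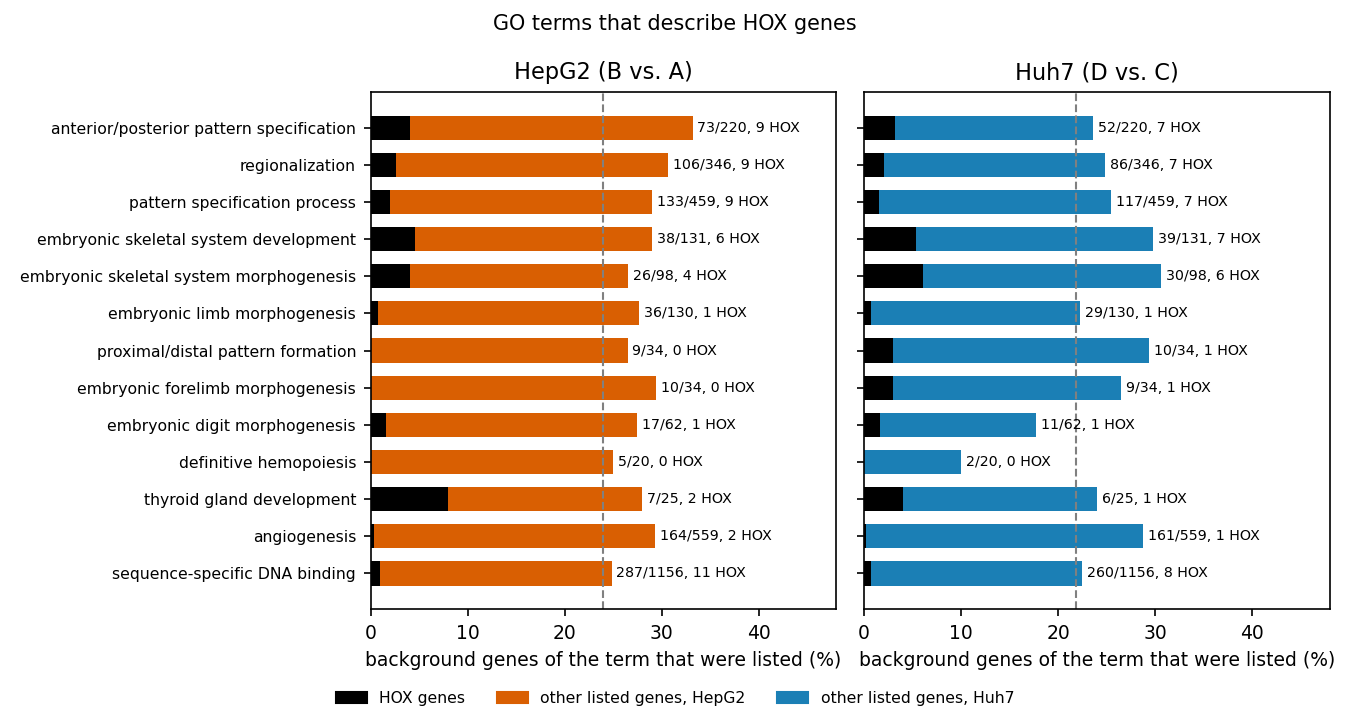
Bars give the percentage of each GO term's background genes found in the HepG2 list (left) and the Huh7 list (right), with HOX genes in black, and the dashed lines mark all protein-coding genes (23.9% and 21.9%). Anterior/posterior pattern specification reached 33.2% in HepG2 cells and 23.6% in Huh7 cells, and HOX genes made up the smaller part of every bar.

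The KEGG tables held almost no HOX gene. In HepG2 cells 0 of the 39 were in a pathway, against 8.46% of all protein-coding genes. In Huh7 cells HOXA11 was the single one, against 8.19% of all protein-coding genes, and it stood under Transcriptional misregulation in cancer, with 56 of 179 genes listed (31.3%). The same pathway held 67 of 179 listed genes in HepG2 cells (37.4%) and no HOX gene. Both pathway shares are over its own 179 genes and are not comparable with 8.46% and 8.19%. The GO lists held 23.9% (HepG2) and 21.9% (Huh7) of all protein-coding genes, and the differences were not tested. Only genes assigned to a pathway can enter these tables.

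Genes of a cluster overlap, which bears on how reads were assigned. Of the 39 HOX genes 18 shared exonic bases with another annotated gene on the same strand, and 19 did so with a gene on the other strand. Among the 16 listed genes the numbers were 5 and 8, and among the 23 genes in neither list 13 and 11. HOXA5 and HOXB9 shared no exonic base with another gene, and HOXA13 shared 1.69% of its exonic bases with HOTTIP, an antisense transcript. HOXC8, HOXC12 and HOXD13 were free of overlap too. By contrast, 59.9% of the exonic bases of HOXC5 lay in other gene entries on the same strand, and 31% of those of HOXA4 did. For HOXC5 these were AC012531.2 and a separate processed transcript that is also named HOXC5. That transcript overlaps HOXC4 and HOXC6 as well and enters their counts. In HOXD, HOXD4 shared 80.5% with a neighboring gene model, AC009336.2, and HOXD3 shared 62.2% with it. That gene model, AC004080.3 and AC012531.2 were the protein-coding genes outside the HOX family that share same-strand exons with HOX genes. All were listed in neither cell line. HOX genes also share exons with each other, as HOXB6, listed in Huh7 cells, does with HOXB3, listed in neither. HOXC4, listed in HepG2 cells, does so with HOXC6, listed in neither. The libraries were strand-specific, but how reads in shared exons were assigned is not given in the sources used here. Its part in the listings was not tested.

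Transcript size was alike for listed and unlisted HOX genes. The median exonic length was 2423 bases for the 11 genes listed in HepG2 cells and 2434 for the other 28, and it was 2322 for the 8 listed in Huh7 cells and 2458 for the other 31. By this measure HOX genes were short, with a median of 2423 bases (range, 1285 to 7456) against 4215 for all protein-coding genes.

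Upstream sequence was compared where RefSeq gave it. A window of 250 bases before the start site was found for 20 of the 39 HOX genes (GRCh38.p14), and 7 of these genes were listed, HOXA3, HOXA4, HOXA11, HOXA13, HOXC4, HOXC5 and HOXD13. HOXC4 and HOXC5, neighbors that were both listed in HepG2 cells, have the same window in this table, chr12:54016638-54016887, because RefSeq places their start at the same site. That window lies within annotated exons and is not printed. HOXA13 is shown as the shared gene with a window, HOXA11 as a gene of Huh7 cells and HOXD13 as the HOXD gene of HepG2 cells. Capitals mark the motifs searched, each on both strands. The first was the CCAAT box. The Sp1 box was read as GGGCGG, which is CCGCCC on the other strand. The TATA box was read as TATAAA. The E-box was read as CACGTG. The composite site of HOX and PBX proteins was read as TGATNNAT. Matches that touch or overlap run together. The windows are chr7:27200092-27200341 (minus strand), chr7:27185233-27185482 (minus strand) and chr2:176092471-176092720 (plus strand).
HOXA13: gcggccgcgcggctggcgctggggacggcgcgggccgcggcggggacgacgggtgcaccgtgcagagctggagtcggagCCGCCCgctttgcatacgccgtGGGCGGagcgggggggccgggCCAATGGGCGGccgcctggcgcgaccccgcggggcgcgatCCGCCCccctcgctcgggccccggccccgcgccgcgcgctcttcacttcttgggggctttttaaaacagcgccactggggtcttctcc
HOXA11: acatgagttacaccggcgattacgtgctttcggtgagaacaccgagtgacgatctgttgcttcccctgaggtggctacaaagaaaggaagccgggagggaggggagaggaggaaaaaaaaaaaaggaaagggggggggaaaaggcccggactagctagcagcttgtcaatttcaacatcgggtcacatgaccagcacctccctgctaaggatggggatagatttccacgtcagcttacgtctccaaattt
HOXD13: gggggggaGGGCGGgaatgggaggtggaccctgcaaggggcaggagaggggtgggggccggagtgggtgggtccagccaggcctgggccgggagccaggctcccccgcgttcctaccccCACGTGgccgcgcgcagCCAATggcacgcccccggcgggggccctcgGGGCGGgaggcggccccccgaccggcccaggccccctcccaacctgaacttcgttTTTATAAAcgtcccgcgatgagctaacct

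HOXA13 had the richest window of all 20, with 78% GC and 40 CpG dinucleotides, while HOXA11 had 51.6% GC, 11 CpG and none of the motifs. HOXD13 had 74% GC and 21 CpG, with TATAAA among its motifs and close to the start site. The 20 windows are mostly of HOXA and HOXD genes, with HOXB1 alone from HOXB and HOXC4 and HOXC5 alone from HOXC. They do not stand for the whole family. Over the 20 windows the median was 59% GC and 20.5 CpG, against 62.4% and 18 over 14896 windows of protein-coding genes. CCAAT, read on either strand, was in 17 of the 20 HOX windows (85%) against 34.5% of all windows, and in 6 of the 7 listed genes and 11 of the 13 genes listed in neither. TATAAA was in 2 of the 7 and 2 of the 13 (8.97% of all windows). CACGTG was in 2 and 5 (7.89% of all), GGGCGG in 4 and 6 (56.9% of all) and TGATNNAT in 0 and 3 (4.34% of all). None of the motifs was in all listed genes and in none of the others, and HOXC4 and HOXC5 count here as 2 windows although they are 1.

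The partners and regulators of HOX genes were looked up in the same lists, which held 23.9% (HepG2) and 21.9% (Huh7) of all protein-coding genes. Each set below is small, and no share was tested against these. TALE homeodomain proteins, which bind DNA together with HOX proteins, had 3 of 9 genes listed in each cell line (33.3%). PKNOX1 was among the genes listed in both, with MEIS1 in HepG2 cells and PBX3 in Huh7 cells. Polycomb genes had 4 of 23 listed in HepG2 cells (17.4%), among them CBX2, BMI1 and PCGF2 of the complex that binds the Polycomb mark and maintains silencing. In Huh7 cells 1 of 23 was listed (4.35%). The complex that writes the mark supplies only some of the 23 genes, and none of those was listed in either cell line. Trithorax genes and the demethylases that remove the Polycomb mark had 3 of 11 listed in each (27.3%), with KDM6B in both, ASH2L and KDM6A in HepG2 cells, and KMT2B and KMT2D in Huh7 cells.

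Retinoic acid, which switches on anterior HOX genes in sequence, was represented by 4 of 19 genes in the HepG2 list (21.1%) and 5 of 19 in the Huh7 list (26.3%). Over all protein-coding genes the shares were 23.9% and 21.9%, and the differences were not tested. The receptor gene RARA was the 1 shared gene. HepG2 cells listed RARB, ALDH1A3, which makes retinoic acid, and STRA6, which imports its precursor, and Huh7 cells listed CYP26A1, which degrades it, ALDH1A1, CRABP1 and CRABP2. ParaHox and HOX-linked homeobox genes had 3 of 13 in each (23.1%), with MEOX1 and GBX2 in both, EVX2 in HepG2 cells and MEOX2 in Huh7 cells. GMNN, CTCF and HNRNPK, which antagonize HOX proteins or take part in cluster looping and silencing, were listed in neither (0 of 3).

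Other families of transcription factors were counted in the same way. A set of 60 genes was chosen by symbol from other homeobox families and the PAX family. It gave 13 in the HepG2 list (21.7%) and 16 in the Huh7 list (26.7%). The 49 forkhead genes had 7 (14.3%) and 12 (24.5%), and the 48 nuclear receptor genes had 13 (27.1%) and 17 (35.4%). Transcription factors of hepatocytes had larger shares, with 5 of 13 (38.5%) and 9 of 13 (69.2%). The secreted hepatocyte markers had 2 of 7 (28.6%) in HepG2 cells, close to the HOX share of 28.2%, and 6 of 7 (85.7%) in Huh7 cells. These lists overlap, since HNF4A and NR1H4 are also counted as nuclear receptors and FOXA1 as a forkhead gene. The shares of all protein-coding genes were 23.9% and 21.9%, and no difference was tested.

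**Figure D5:**
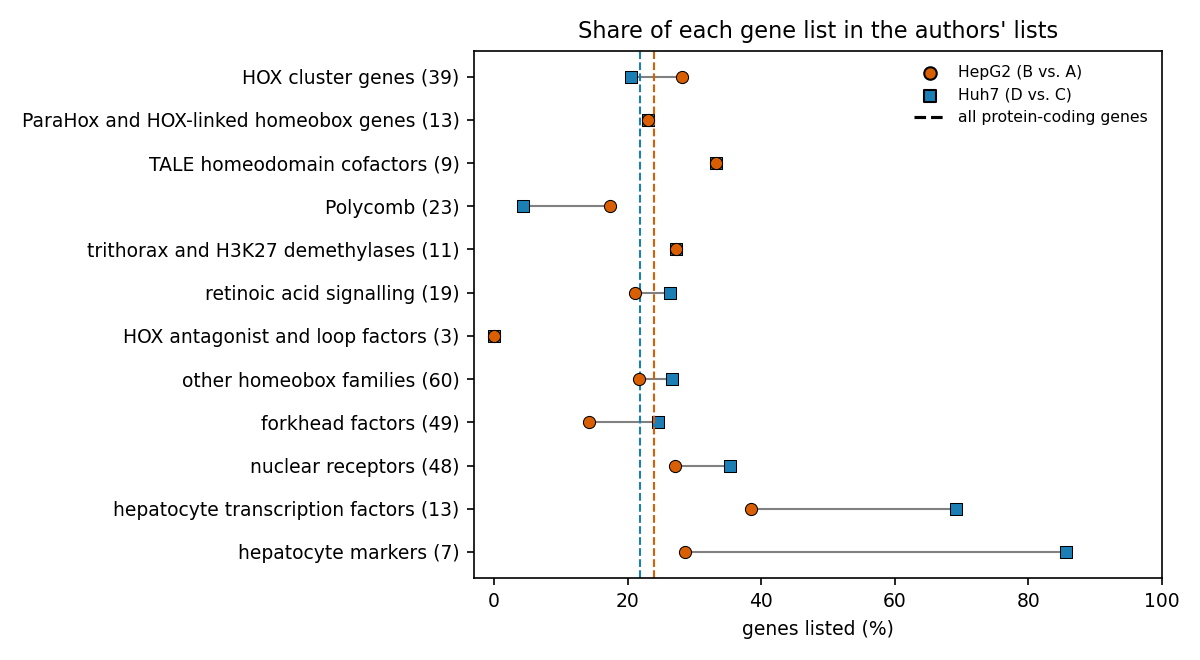
Points give the percentage of each gene list (number of genes in parentheses) found in the HepG2 (orange circles) and Huh7 (blue squares) lists, and dashed lines mark all protein-coding genes (23.9% and 21.9%). HOX genes stand at 28.2% and 20.5%, close to the lines, and the hepatocyte lists stand farthest to the right in Huh7 cells at 69.2% and 85.7%.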

How the data were processed

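The authors cleaned the reads, computed FPKM values and called genes at an adjusted p-value under 0.05, with 1 library per group, and then ran GOseq for GO terms and KOBAS for KEGG pathways. The submitters' processing notes name HISAT2, StringTie 1.3.1, Bowtie2 2.2.8 and Cuffdiff 2.1.1. For the calls, the study's methods name Cuffdiff and its results name edgeR, and which made the lists is not settled here. The genome build and annotation are not given in the sources used here. The authors deposited 4 tables, which hold numbers of listed and background genes, gene identifiers, and p-values of terms, and the last were not used. The numbers are genes, not reads, and the tables do not give the depth of each library.

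Each list was rebuilt as the union of identifiers under all GO terms (4783 genes in B vs. A and 4369 in D vs. C). The GO tables head these columns CAD, a term no source used here explains, and the KEGG tables are labelled as differentially expressed genes. Of the genes in the KEGG tables, 1672 of 1687 and 1622 of 1633 were also in the GO lists. Gene names, types, positions and exons came from GENCODE release 29 by identifier, and a second table of names gave all 39 HOX genes the same symbol. Shares of genes are over its 19951 protein-coding genes. Exonic length is the union of annotated exons. Upstream windows came from RefSeq. Reading and counting were checked on simulated tables with known answers (Python 3.11.15). All 39 HOX genes enter the counts, and a few genes are not reported here by name or drawn on the maps of genes. By the rule for named genes, listed members of the other lists and annotated neighbors of HOX genes could be named. The narrow GO terms and the pairs of clusters were chosen after the values had been seen. The HOX genes and all lists were chosen with earlier results of these data known.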

Additional observations from a re-analysis of the deposited data

How the results depend on the processing

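Counting genes under at least 10 GO terms, under molecular function terms or in either kind of table left the HOX counts at 11, 8 and 3 (HepG2, Huh7, both). These settings could not change the counts and are no check of them. Every listed HOX gene stood under at least 73 terms, with sequence-specific DNA binding, a molecular function term, among them. HOXA11, the only HOX gene in a KEGG pathway, was already in the Huh7 list. Anterior/posterior pattern specification alone gave 9, 7 and 2. The KEGG tables in place of the GO tables gave 0, 1 and 0, since those tables hold pathway members alone. With the authors' background of 22148 genes, the share of all genes listed was 21.6% in HepG2 and 19.7% in Huh7 cells. Over genes of sequence-specific DNA binding, a setting chosen after seeing the data, it was 24.8% and 22.5%. Ending the anterior groups at 5 gave 4 of 15 genes listed in each cell line (26.7%). Starting the posterior ones at 10 gave 4 of 12 in HepG2 (33.3%) and 2 of 12 in Huh7 cells (16.7%). Leaving out a replicate was not possible with 1 library per group, and depth, direction and expression limit every count.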
